A study of Mus musculus with 11 samples.

Results

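The stomach muscle wall of H-2Kb-tsA58 mice was compared with that of C57BL/6J mice on 5 arrays, 3 of tsA58 and 2 of C57BL/6J tissue, chosen by their titles from the 11 arrays of the series. The tissue, gastric tunica muscularis, is the outer muscle layer of the stomach. Mucosal transcripts were present on every tissue array: 23 gastric epithelium genes averaged 8.27 to 10.41, beside 7.10 to 7.33 over all genes. H-2Kb-tsA58 mice carry a thermolabile simian virus 40 large T antigen under the interferon-inducible H-2Kb promoter, and C57BL/6J mice are wild type and lack it. The labels give neither age, sex nor number of animals behind an array, nor the strain background of the tsA58 mice, so the transgene cannot be told apart from differences of background or age. The other 6 arrays, which entered the same model, are 3 each of 2 clonal progenitor lines for ICC, the interstitial cells of Cajal. The C57BL/6J line, 2xSCS2F10, was grown at 37 °C with 5% chick embryo extract, and the tsA58 line, 2xSCS70, at 39.5 °C without interferon-gamma. The titles call the arrays of a group biological replicates, the design text counts several arrays to a sample, and neither says which animals each array came from. Sex-linked genes, given last, differed between arrays of each tissue group, so these are not all repeats of 1 RNA sample. The p-values measure the spread between arrays within a group, pooled over the tissue and line arrays, and not that of the tissue arrays alone.

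The muscle wall of the stomach is made mainly of smooth muscle cells, which contract through actin and smooth muscle myosin and are held in a contractile state by serum response factor and its cofactor myocardin. ICC are the Kit-positive pacemaker cells between them, and the myenteric plexus, with its neurons and glia, the resident macrophages and the blood vessels lie in the same layers. The tsA58 large T antigen binds p53 and the retinoblastoma family at its permissive temperature, which is below that of the mouse body, and its promoter is driven up by interferon. The comparison bears on which transcripts differed between the muscle walls of mice named like the 2 lines. The labels do not link these tissue arrays to the animals from which the lines came.

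Values are deposited log2 intensities, so that a difference of 1 is a 2-fold change, and each gene is read from 1 probe set. Differences are tsA58 minus C57BL/6J, with the standard error of the limma fit and its p adjusted by the Benjamini-Hochberg method over all genes tested. A gene was called when that p was below 0.05 and the change at least 2-fold. The C57BL/6J arrays correlated with each other at 0.982, the tsA58 arrays at 0.965 to 0.977, and arrays of different groups at 0.933 to 0.945. In a principal component analysis of the 5 arrays, component 1 (58.6% of the variance) separated the groups, and component 2 (22%) set tsA58 array 1 (score 47.0) against tsA58 array 2 (-42.0), with tsA58 array 3 at -5.4. The hybridisation controls, spikes added before hybridisation, read 10.96 and 10.77 on the C57BL/6J arrays and 7.52, 9.04 and 9.66 on the tsA58 arrays. The ratio of the 3' to the 5' probe sets of actin, a sign of RNA and amplification quality, was 1.02 and 0.84 against 0.47, 0.43 and 0.41 on the log2 scale. The controls and the ratio thus differ with the strain, and their part in the results was not tested beyond the alternatives given here. Fewer cells of a type and less RNA per cell cannot be told apart in whole tissue.

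Of 13285 genes tested, 1270 (9.56%) were called higher in tsA58 tissue and 426 (3.21%) lower, and the median difference over all genes was 0.18. Without overlap of the groups, all 3 tsA58 arrays lay above both C57BL/6J arrays for 37.9% of genes and below both for 16.4%. Higher genes made up 74.9% of the calls. After quantile normalization of the deposited values 907 genes were higher and 601 lower, or 60.1% higher, and after cyclic loess 849 and 544, or 60.9%. When each array was set to a common level of those hybridisation controls, the median difference moved by 2.13 and gave 12167 higher and 18 lower genes, or 99.9% higher. Without C57BL/6J array 1, 605 genes were higher and 212 lower, and without array 2, 678 and 175. All directions below are relative to the bulk of transcripts on an array. A gene described as lower by less than 2.13 would read as higher on the scale of those controls.

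**Figure D1:**
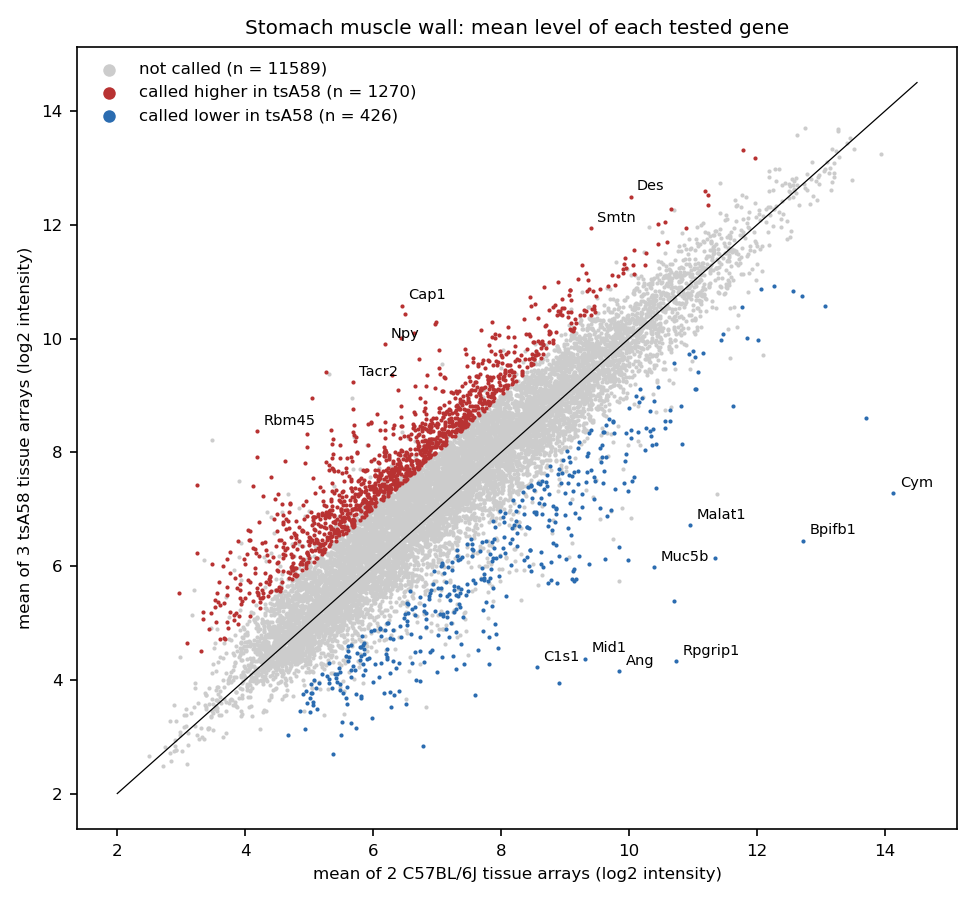
Mean log2 intensity of each of the 13285 tested genes on the 3 tsA58 tissue arrays (vertical axis) against the 2 C57BL/6J tissue arrays (horizontal axis). Red points are the 1270 genes called higher in tsA58 and blue points the 426 called lower. Rpgrip1, Ang and Cym lie far below the line of equal means and Cap1, Rbm45 and Npy far above it.

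Rbm45, which encodes an RNA-binding protein, was among the genes with the highest differences. It read 4.24 and 4.13 on the C57BL/6J arrays and 8.72, 8.24 and 8.16 on the tsA58 arrays, a difference of 4.19 ± 0.34 (adjusted p = 0.000135). Its C57BL/6J values, like those of Clca1 (2.92 and 3.57), lie below the array medians of 4.66 to 4.84 and cannot be told from background, so their order among the highest differences is not resolved. Cap1, an actin-monomer recycling protein, read 6.21 and 6.68 against 10.52, 10.72 and 10.49 (4.13 ± 0.30, adjusted p = 7.81e-05), and its other probe set differed by 5.00. In both genes the groups lay far apart and the arrays within each group close together. Npy, the enteric neuropeptide Y, read 5.94 and 6.42 against 10.26, 9.43 and 10.02 (3.72 ± 0.26, adjusted p = 6.76e-05). Tacr2, the neurokinin 2 receptor through which tachykinins contract gut muscle, read 5.53 and 5.83 against 9.02, 8.88 and 9.82, a difference of 3.56 ± 0.26. Every tsA58 array exceeded the C57BL/6J arrays by more than 3 log2 units in Npy and Tacr2. Clca1, Mrgprf, Cebpd, Sod3 and Abcb1b, a drug efflux pump, were higher by 3.29 to 4.17. The other probe set of Cebpd differed by -0.23. Every called gene of the comparison, 1270 of 1270 higher and 426 of 426 lower, had groups without overlap, so this sets no called gene apart. The remaining genes of the 15 with the highest differences were Retnla, Adipoq, Ces1d, Prg4, Car3 and Scd1. They stood higher on tsA58 arrays 2 and 3 than on array 1, as described below.

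The lowest difference among the called genes was that of Cym, chymosin, the milk-clotting protease of the young stomach, and its tsA58 arrays disagreed. It read 14.15 and 14.11 on the C57BL/6J arrays and 12.87, 5.03 and 3.94 on the tsA58 arrays (-6.85 ± 1.95, adjusted p = 0.032). Chymosin was thus near the top of the scale on 3 arrays and near background on 2. Rpgrip1, a ciliary protein best known from photoreceptors, read 10.65 and 10.83 against 3.93, 3.95 and 5.09 (-6.41 ± 0.49, adjusted p = 8.48e-05). Its 3 other probe sets lay between 2.60 and 3.48 on all 5 arrays, so this difference rests on 1 probe set. Ang, the secreted ribonuclease angiogenin, read 9.94 and 9.75 against 3.90, 4.32 and 4.23 (-5.70 ± 0.33, adjusted p = 3.05e-05), and its other 2 probe sets differed by -4.11 and -1.21. C1s1, a complement protease, read 8.65 and 8.46 against 4.03, 4.23 and 4.42 (-4.33 ± 0.30, adjusted p = 6.76e-05). Rpgrip1, Ang and C1s1 were near background on all tsA58 arrays. The 15 lowest included secreted and surface products of epithelia: Bpifb1 differed by -6.27, Pga5, a pepsinogen, by -5.10, Muc5b, a gel-forming mucin, by -4.42, and the squamous epithelial antigen Ly6d by -5.20. Ces2b, Nrk, Mid1, Malat1, Taf15, Pabpc4l and Aadac completed the 15, with differences from -5.31 to -3.53. For the nuclear long RNA Malat1, whose listed probe set differed by -4.24, the 6 other probe sets ranged from -3.48 to 0.62.

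Smooth muscle genes marked the tissue on every array. Acta2, smooth muscle alpha-actin, read 13.23 and 13.30 against 13.62, 13.66 and 13.78, and Myh11, smooth muscle myosin heavy chain, 12.15 and 12.22 against 13.04, 12.54 and 13.25; neither was called. Their other probe sets differed by more, by 1.91 and 2.10 for Acta2 and by 1.44 for Myh11. Of 22 contractile genes, 8 were called higher and 1 lower (40.9% called), beside 9.56% and 3.21% over all genes. With the mean of all probe sets of a gene 11 were called higher. All 3 tsA58 arrays lay above both C57BL/6J arrays for 17 of the 22, beside 37.9% of all genes. The median difference was 0.73, against 0.18 over all genes. Des, desmin of the intermediate filaments, read 9.86 and 10.18 against 12.52, 12.39 and 12.58 (2.47 ± 0.20, adjusted p = 0.000144), although its other probe set differed by 0.38. Smtn, smoothelin, an actin-bound protein of contractile muscle, read 9.34 and 9.46 against 11.95, 11.73 and 12.14 (2.54 ± 0.44, adjusted p = 0.00367). Kcnmb1, the beta subunit of the large-conductance potassium channel, read 5.71 and 6.5 against 7.98, 8.67 and 8.54, a difference of 2.29 ± 0.27. Lmod1, Hspb6, Cnn1, Myl6 and Casq2, which code for a filament nucleator, a small heat shock protein, calponin, a myosin light chain and a calcium store protein, were higher by 1.31 to 1.87. Of these, Cnn1 had an adjusted p of 0.0496 in the limma fit, and its call was lost under 16 of 25 alternatives. Myocd, the myocardin cofactor itself, was the member called lower: it read 8.71 and 8.79 against 7.17, 5.64 and 7.63 (-1.94 ± 0.46, adjusted p = 0.0151). Its other probe set differed by -0.42, and it was not called with the 5 tissue arrays alone. With the actin 3' to 5' ratio as a covariate 5 members were called higher, and the differences of Acta2 and Tagln, 0.42 and 0.96, became -0.98 and -1.62. Within groups this ratio varied most in the tsA58 line (0.51, 0.85 and 0.05), where Acta2 read 10.99, 9.72 and 12.13. The adjustment thus rests mostly on the line arrays, and whether it holds for tissue was not tested. Without C57BL/6J array 1 also 5 were called higher.

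**Figure D2:**
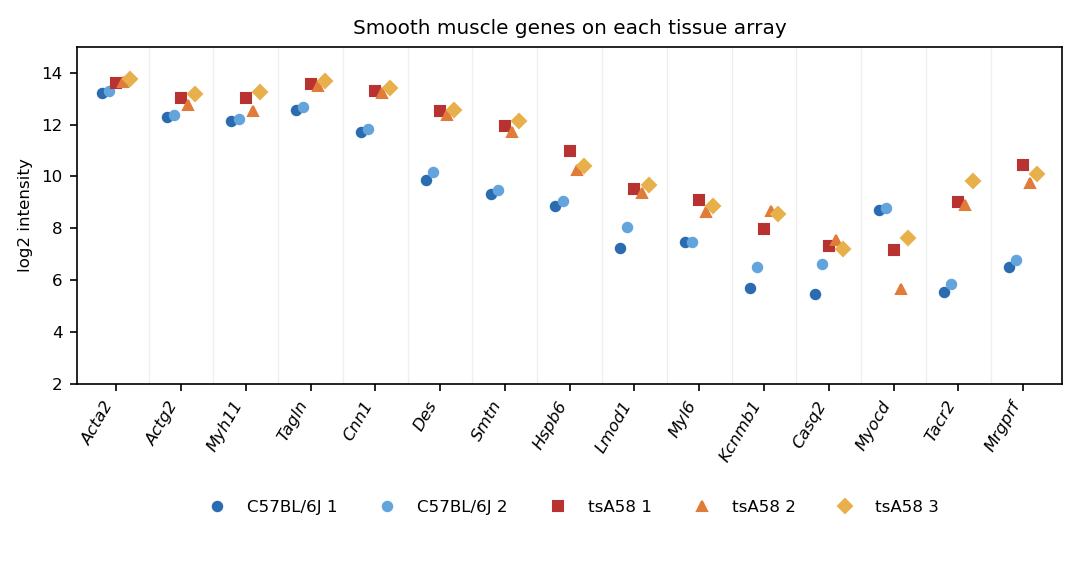
Log2 intensity of 13 smooth muscle contractile genes and of Tacr2 and Mrgprf on each of the 5 tissue arrays, with circles for C57BL/6J and other symbols for tsA58. The genes from Acta2 to Tagln differ by 0.42 to 0.96 and were not called, while Des, Smtn, Kcnmb1 and Tacr2 sit higher on all 3 tsA58 arrays and Myocd lower.

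Serum response factor and myocardin act through the CArG box, CC followed by 6 letters of A or T and then GG. It was searched on both strands in the 250 bases before the start of each gene, in RefSeq sequences of GRCm38.p6. It was found for 1.62% of 27025 genes and for 2 of the 18 contractile genes with a sequence, Myl6 and Myl9. Myl6 has 2 windows, of which 1 holds the box and the other lacks it. The window with the box, at chr10:128493010-128493259 on the minus strand, is printed. Myl6 is the member called higher that holds the box, here in capitals. Its 3' end lies 41 bases before the start site. The match is a description of these letters.

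Myl6: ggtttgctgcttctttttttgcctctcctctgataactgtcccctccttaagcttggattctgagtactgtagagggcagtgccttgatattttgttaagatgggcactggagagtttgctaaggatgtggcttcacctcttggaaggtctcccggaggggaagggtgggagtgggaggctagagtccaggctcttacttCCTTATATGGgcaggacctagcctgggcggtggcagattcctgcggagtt

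Of 10 mature ICC genes 2 (20%) were called, beside 12.8% of all genes. Kit, the receptor that defines these cells, read 7.47 and 6.83 against 8.61, 7.34 and 7.66, a difference of 0.72 ± 0.37 (adjusted p = 0.198). Ano1, the pacemaker chloride channel, read 9.94 and 9.89 against 9.69, 9.68 and 10.10 (-0.09 ± 0.37), and its other probe set differed by 1.24. On the probe sets that stood for them, the groups overlapped in both genes. The other probe set of Kit read 4.97 and 4.56 against 6.01, 5.78 and 5.35, a difference of 0.95. All 3 tsA58 arrays lay above both C57BL/6J arrays there, as they did for 37.9% of all genes. The 2 called were Thbs4 (1.84 ± 0.29) and Cacna1h, a T-type calcium channel (1.89 ± 0.44), both higher. Prkcq, a protein kinase of ICC, differed by 0.98 with an adjusted p of 0.00418 and missed the 2-fold limit. Gpr20 and Nos3 differed by 0.65 and 0.72, and Elovl6, Gja1 and Edn3 by -0.67, -0.55 and -0.19, none of them called. Of 7 genes of ICC progenitors and their ligands 1 (14.3%) was called, near the share over all genes. This was the adhesion receptor Cd44, lower (-1.15 ± 0.29), with its other probe sets at 0.34 and 0.89. Cd34, Pdgfra, Kitl, Igf1r and Insr lay between -0.49 and 0.62 and were not called. The other probe sets of Pdgfra differed by 1.31 and 1.45 and those of Kitl by 0.95 to 1.09.

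In the nerve plexus several transmitter genes stood higher. Of 15 enteric transmitter genes 3 were higher and 1 lower (26.7% called, beside 12.8% of all genes). Their median was 0.21, near the 0.18 over all genes. Beside Npy, the vesicular acetylcholine transporter Slc18a3 read 4.57 and 4.61 against 7.43, 6.23 and 6.65 (2.18 ± 0.29, adjusted p = 0.00127), and the enkephalin precursor Penk 9.11 and 9.08 against 10.82, 10.05 and 11.17. Calcb, a calcitonin gene-related peptide, differed by -1.18 ± 0.30. Of 21 pan-neuronal genes Sncg, Scg2, Chga and Chrna3 were higher, by 1.16 to 1.77, and 0 were lower (19% called). The mean of the list was 8.21 and 8.37 on the C57BL/6J arrays and 9.31, 8.34 and 8.92 on the tsA58 arrays. Array 2 of tsA58 was thus level with C57BL/6J, and 16 of the 21 genes lay nearer the C57BL/6J mean there, against 35.6% of all genes. Glial genes moved both ways. Of 14, 6 were higher and 2 lower (57.1% called). The sodium channel Scn7a read 6.13 and 6.5 against 8.36, 8.44 and 8.50 (2.12 ± 0.19), Cdh19 rose by 1.80, and S100b by 1.22. The other probe sets of Scn7a differed by 0.20 and 1.32, and it was not called when read from the probe set brightest in tissue. Sox2, a transcription factor of glia and glial progenitors, read 7.83 and 8.09 against 6.16, 5.87 and 5.42 (-2.14 ± 0.23, adjusted p = 0.000508). Fabp7, a lipid-binding protein of immature glia, differed by -2.0 ± 0.46 and was lower on every tsA58 array. Without either C57BL/6J array, 3 glial genes were called higher.

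Some macrophage, antigen presentation and endothelial genes were higher in tsA58 tissue. Of 19 macrophage genes 7 were higher and 2 lower (47.4% called, beside 12.8% of all genes), with a median of 0.45. Lyve1, a hyaluronan receptor of resident macrophages and lymphatics, read 7.30 and 7.56 against 9.55, 10.07 and 9.83 (2.39 ± 0.19, adjusted p = 0.00012). The complement gene C1qb read 7.11 and 7.09 against 8.38, 10.11 and 9.47 (2.22 ± 0.39), and C1qa and C1qc each differed by 2.06. Cd163 and Lyz2 were higher by 1.92 and 1.76. The chemokine receptor Cx3cr1 read 5.31 and 5.87 against 3.68, 4.0 and 3.94 (-1.71 ± 0.22), and Laptm5 differed by -2.08, with 3 other probe sets at -0.39 to 0.44. Class II genes of the major histocompatibility complex were highest on tsA58 array 2, and 4 of 6 (66.7%) were called higher. H2-Ab1 read 6.34 and 6.02 against 7.90, 9.55 and 7.70 (2.21 ± 0.47, adjusted p = 0.00994). Cd74, H2-DMa and H2-Eb1 differed by 1.92, 1.91 and 1.52. Without C57BL/6J array 1, 0 of the class II genes were called higher. Of 15 class I and processing genes 2 (13.3%) were called, near the 12.8% over all genes. They were H2-D1 (1.49 ± 0.37) and the peptide transporter Tap2 (1.68 ± 0.24), both higher. Of 34 interferon response genes 2 (5.88%) were called, a smaller share than over all genes. Bst2 (1.52) and Gbp3 (1.29) were higher and 0 were lower, with a median of 0.31. The same list had 31 higher genes between the lines. Endothelial genes were higher in 6 of 17 (35.3%) and lower in 0. Pecam1 read 4.21 and 4.78 against 7.46, 7.09 and 6.19 (2.42 ± 0.33), Tie1 differed by 2.13, Esam by 1.79 and Emcn by 1.39. Mast cell and granulocyte genes split, with the mast cell tryptase Tpsb2 higher by 2.18 and S100a9 and Mcpt2 at -3.39 and -1.57, out of 8 (37.5% called). Without C57BL/6J array 2, 3 macrophage and 3 endothelial genes were called higher. Coro1a, of lymphocytes, was higher by 1.19 and was the 1 call among 7 (14.3%), near the share over all genes.

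Transcripts of neighbouring tissues varied array by array. Among 23 genes of the gastric epithelium, 5 (21.7%) were called lower, beside 3.21% of all genes, and 0 higher. Their median of -0.31 became 1.81 on the scale of the hybridisation controls. The cadherin Cdh1, Anxa10 and Gkn3 differed by -1.98, -2.05 and -1.40. The junction gene Cldn18 read 9.64 and 9.65 against 7.40, 9.40 and 6.94, and the protease Ctse 12.57 and 12.56 against 10.64, 12.05 and 9.81. Array 2 of tsA58 lay close to C57BL/6J in both genes. The other probe set of Ctse differed by 1.10 and that of Cldn18 by -3.33. The mean of the list was 9.60 and 9.43 against 8.30, 10.41 and 8.27, highest on tsA58 array 2. The count of lower genes was 1 without tsA58 array 1, 11 without tsA58 array 2 and 0 without C57BL/6J array 1. Gast and Pyy, the gastrin and peptide YY genes of endocrine cells, differed by -2.51 and -2.92. They were the 2 called lower of 8 gastric endocrine genes, and Chga was called higher (37.5% called). The median of these 8 genes was 0.07. The 17 exocrine pancreas genes averaged 10.84 on C57BL/6J array 1, 6.26 on array 2, and 5.13, 9.92 and 5.82 on the tsA58 arrays, and limma called 0 in either direction, with 1 at an unadjusted p below 0.05. The 19 squamous genes of the forestomach averaged 8.70 on C57BL/6J array 2 and 5.73 on array 1, and 5.28, 7.17 and 5.13 on the tsA58 arrays. The part of these tissues in other differences was not tested.

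**Figure D3:**
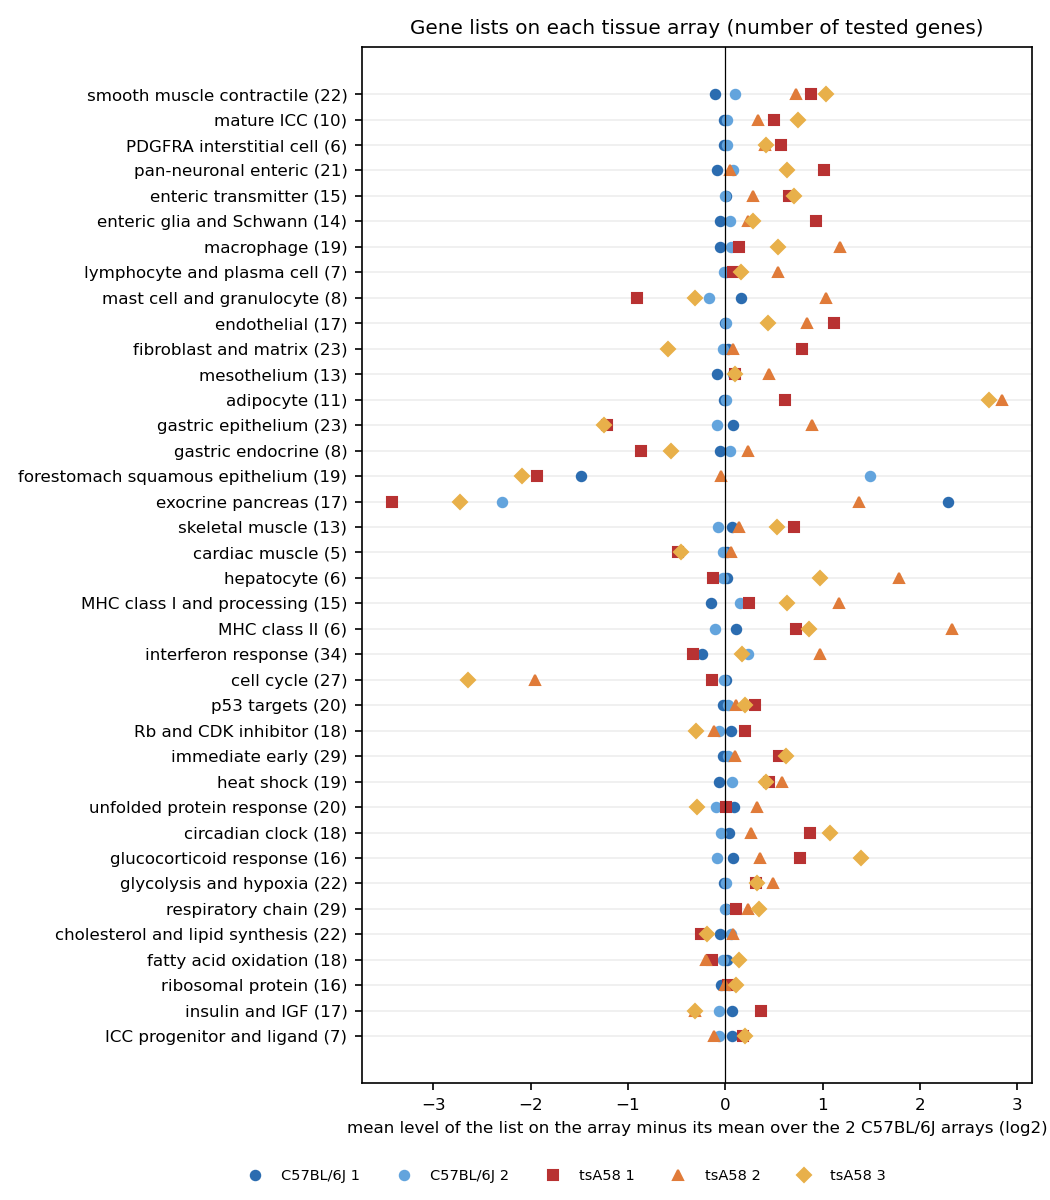
Mean level of each gene list on each tissue array minus its mean over the 2 C57BL/6J arrays, on the log2 scale, with the number of tested genes in brackets. Cell cycle genes are low and adipocyte genes highest on tsA58 arrays 2 and 3, and exocrine pancreas genes are high on C57BL/6J array 1 and tsA58 array 2.

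Cell cycle genes divided the tsA58 arrays. The mean over 27 genes was 7.97 and 7.95 on the C57BL/6J arrays, 7.82 on tsA58 array 1, and 6.01 and 5.32 on tsA58 arrays 2 and 3. On array 1, 26 of the 27 lay nearer the C57BL/6J mean than the mean of the other tsA58 arrays, against 33.9% of all genes. With all arrays 3 of 27 (11.1%) were called lower, beside 3.21% of all genes. The list median of -1.38 became 0.75 on the scale of the hybridisation controls. Without tsA58 array 1 the count was 17 of 27, where 4.12% of all genes were called lower and 9.02% higher. Mki67, the proliferation antigen Ki-67, read 10.06 and 9.99 against 9.42, 6.47 and 4.65. Top2a, the topoisomerase of dividing cells, read 9.07 and 9.07 against 8.64, 5.99 and 3.82, and Cdc20, which activates the anaphase-promoting complex, 9.71 and 9.72 against 9.21, 6.75 and 4.95. None of these 3 was called with all arrays (adjusted p 0.0693, 0.0813 and 0.0537), and each was called without tsA58 array 1. They were picked for their values, so these calls follow from the choice. Rrm2, a ribonucleotide reductase subunit, read 9.62 and 9.64 against 8.85, 5.49 and 4.04 (-3.50 ± 1.08, adjusted p = 0.0434). Its other 2 probe sets differed by -2.06 and -0.78, and its call was lost under 16 of 25 alternatives. Bub1b of the spindle checkpoint and Ccne2, cyclin E2, were also called lower, at -2.07 and -2.32.

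Many cell cycle promoters hold a CHR element, TTTGAA, and CCAAT boxes. In the same 250-base windows and on both strands, TTTGAA was present for 12.8% of the tested genes with a sequence and for 7 of 23 cell cycle genes, but for 0 of the 2 called lower that have a sequence. CCAAT was present for 40.1% and for 19 of 23. The windows of Mki67 (chr7:135716380-135716629), Top2a (chr11:99024190-99024439) and Cdc20 (chr4:118437344-118437593), all on the minus strand of GRCm38.p6, are printed with TTTGAA or its complement in capitals, because these 3 genes show the division of the arrays and hold the element. They were chosen for holding it and were not called with all arrays.

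Mki67: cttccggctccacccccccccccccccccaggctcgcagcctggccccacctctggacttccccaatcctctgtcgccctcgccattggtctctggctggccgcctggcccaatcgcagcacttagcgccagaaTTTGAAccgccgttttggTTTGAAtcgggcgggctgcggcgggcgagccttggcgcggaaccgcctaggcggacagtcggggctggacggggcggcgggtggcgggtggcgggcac

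Top2a: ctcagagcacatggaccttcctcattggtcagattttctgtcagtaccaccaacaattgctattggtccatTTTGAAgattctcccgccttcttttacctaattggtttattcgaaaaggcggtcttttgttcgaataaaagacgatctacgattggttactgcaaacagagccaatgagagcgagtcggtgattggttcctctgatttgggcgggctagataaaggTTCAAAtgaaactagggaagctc

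Cdc20: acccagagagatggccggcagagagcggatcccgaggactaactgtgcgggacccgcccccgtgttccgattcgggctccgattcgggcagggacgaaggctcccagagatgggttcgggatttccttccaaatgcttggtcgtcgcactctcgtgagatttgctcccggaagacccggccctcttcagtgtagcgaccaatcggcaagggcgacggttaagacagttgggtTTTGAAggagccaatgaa

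Other genes followed the same division of the arrays, and were picked for it after their values were seen. The growth factor Igf2 read 10.33 and 10.32 against 9.68, 7.89 and 7.58 (-1.94 ± 0.56, adjusted p = 0.033). Its other probe set differed by -0.43. Under 7 of 25 alternatives its call was lost, and under 1 more its sign changed. Fbn2, fibrillin 2 of elastic microfibrils, read 8.94 and 8.80 against 8.42, 4.51 and 4.16. The imprinted Dlk1 read 8.26 and 8.21 against 8.03, 4.54 and 5.23, and the imprinted Meg3 11.19 and 10.78 against 11, 9.34 and 8.45. Peg3, also imprinted, read 10.59 and 10.52 against 10.55, 8.63 and 9.20. In the other direction, the cytochrome Cyp2e1 read 3.36 and 3.60 against 3.49, 10.20 and 10.95, and the methyltransferase Inmt 3.73 and 4.09 against 3.83, 8.30 and 10.34. Cyp2e1, Inmt, Dlk1, Meg3 and Peg3 were not called with all arrays (adjusted p 0.067, 0.0853, 0.0568, 0.103 and 0.126) and were called without tsA58 array 1. Because they were picked for this division, their calls without array 1 follow from the choice. The other 10 probe sets of Meg3 differed by -2.71 to 1.34 and the other 2 of Peg3 by -2.25 to 0.12. On these genes, as on Cym, tsA58 array 1 read like C57BL/6J tissue. Not all growth-associated genes did: the chromatin protein Hmga2 read 7.38 and 6.78 against 4.08, 4.68 and 4.43 (-2.68 ± 0.37), low on every tsA58 array. The labels give no age for any animal, and what sets array 1 apart was not tested. Of the 1270 genes called higher 1028 were also called without array 1, and of the 426 called lower 348.

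**Figure D4:**
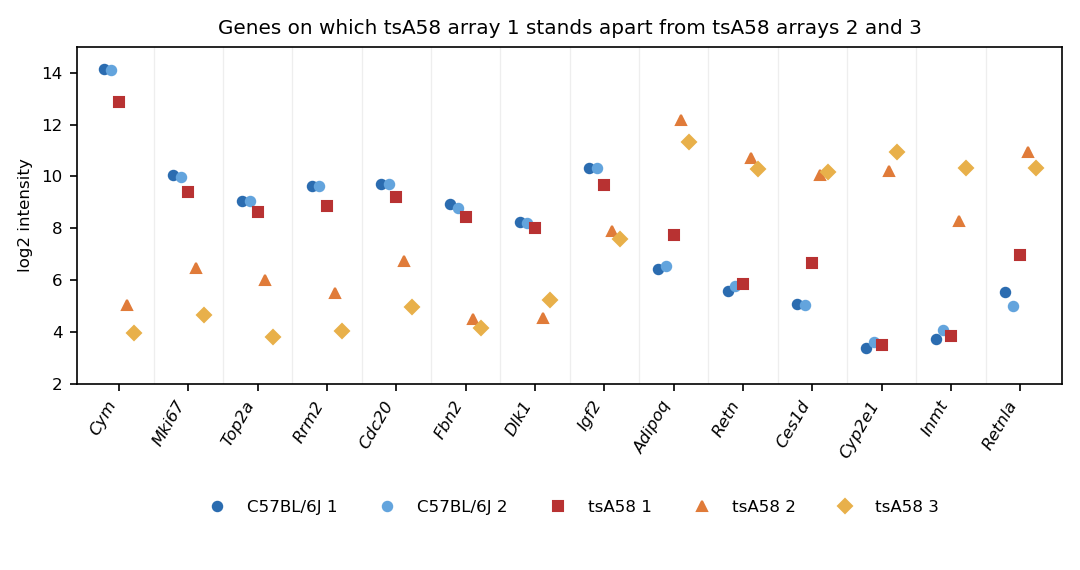
Log2 intensity on each of the 5 tissue arrays of 14 genes picked because tsA58 array 1 (red squares) stands apart. From Cym to Igf2 array 1 lies at or near the C57BL/6J circles and above the other tsA58 arrays, and from Adipoq to Retnla it lies below the other tsA58 arrays.

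Adipocyte genes showed the same array order and the highest list median, 2.37. Of 11 tested, 6 (54.5%) were higher and 0 lower, and the list averaged 6.56 and 6.58 against 7.18, 9.41 and 9.28. Adipoq, the fat cell hormone adiponectin, read 6.44 and 6.54 against 7.75, 12.20 and 11.33 (3.93 ± 0.95, adjusted p = 0.0168). Plin4, a lipid droplet protein, read 5.94 and 5.89 against 7.68, 8.65 and 9.15 (2.58 ± 0.38), and Lipe, hormone-sensitive lipase, 4.36 and 4.78 against 5.91, 7.91 and 7.43. The fat hormone resistin, Retn, read 5.57 and 5.78 against 5.83, 10.73 and 10.28 and was not called. Most of the rise was on arrays 2 and 3. Array 1 still lay above C57BL/6J for Adipoq, Plin4 and Lipe, but was about level with it for Retn. On array 1, 8 of the 11 genes lay nearer the C57BL/6J mean than the mean of the other tsA58 arrays, against 33.9% of all genes. Pck1, Pnpla2 and the insulin-responsive glucose transporter Slc2a4 were higher by 1.40 to 2.98. The count was 9 without tsA58 array 1 and 2 without C57BL/6J array 1.

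Lipid synthesis genes went both ways. Scd1, the desaturase that makes oleate, read 6.91 and 7.04 against 9.04, 11 and 10.74 (3.29 ± 0.46, adjusted p = 0.00159). Against it, the sterol pathway genes Insig1 (-1.98 ± 0.37), Cyp51 (-1.48 ± 0.28) and Fdft1 (-1.06 ± 0.28) were lower, and Srebf2, their transcriptional activator, was higher by 1.13. The other 3 probe sets of Fdft1 differed by -0.15 to 0.20, and its call was lost with the mean of all probe sets. Of the 22 lipid synthesis genes 2 were higher and 3 lower (22.7% called, beside 12.8% over all genes). Of 22 glycolysis genes 3 (13.6%) were called higher, near the 12.8% called over all genes. Pkm, a pyruvate kinase, read 9.38 and 9.35 against 11, 11.03 and 11.05, and Aldoa and Hk1 differed by 1.5 and 1.41. None of 29 respiratory chain genes and 16 ribosomal protein genes was called by limma, and their medians were 0.33 and 0.07. At an unadjusted p below 0.05 there were 12 and 0.

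Of 16 glucocorticoid-responsive genes 4 (25%) were called higher and 0 lower, beside 12.8% called in either direction over all genes: the receptor chaperone Fkbp5 read 6.84 and 5.94 against 8.89, 7.93 and 10.48 (2.71 ± 0.58, adjusted p = 0.0101), and Klf9 8.99 and 8.84 against 10.35, 10.03 and 11.05. The other 5 probe sets of Klf9 differed by 0.11 to 2.37, and Sult1a1 was higher by 1.82. The acute-phase lipocalin Lcn2 read 4.53 and 3.57 against 4.84, 6.79 and 8.28, with an adjusted p of 0.0498, and its call was lost under 17 of 23 alternatives. Array 3 held the highest value of each of these 3 genes. The clock repressor Nr1d1 read 5.5 and 5.21 against 7.0, 7.96 and 8.74 (2.54 ± 0.40), and Dbp, an output gene of the clock, differed by 1.51; they were the 2 called of 18 (11.1%). Of 29 immediate early genes 4 (13.8%) were called higher, Junb (1.84), Zfp36 (1.60), Gadd45b (1.47) and Ier2 (1.27). The clock and immediate early shares are near that over all genes. The other 2 probe sets of Gadd45b differed by -0.24 and 0.13, and after quantile normalization its difference was -0.12. Of 19 heat shock genes 4 (21.1%) were higher, with the inducible Hspa1a at 5.03 and 6.22 against 7.53, 7.62 and 7.62, and Hspb8, its partner Bag3 and Hspa4l higher by 1.13 to 1.75. The labels give no hour of dissection.

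Of 18 genes of the retinoblastoma and cyclin kinase inhibitor list 2 (11.1%) were called, and of 20 p53 targets 2 (10%), near the 12.8% over all genes. In the first list Rbl2, the p130 pocket protein, was higher (6.16 and 5.77 against 8.34, 8.39 and 8.82, a difference of 2.55 ± 0.38), and its other probe set differed by 2.14. Cdk6, a G1 kinase, differed by -1.70. Of the p53 targets, Phlda3 was higher by 1.00 and Pmaip1, the apoptosis gene Noxa, differed by -1.67. The list medians were -0.11 and 0.32, against 0.18 for all genes. Of 17 insulin and insulin-like growth factor genes 2 were higher and 1 lower (17.6% called), with a median of -0.10. The binding proteins Igfbp2 and Igfbp5 were higher by 1.83 and 1.28, and Igf2, given above, was lower. In the matrix list Pi16, Fbln1 and Thy1 were higher by 2.16 to 2.78 and 20 of 23 genes were not called. The share called, 13%, is near that over all genes, and the other 2 probe sets of Fbln1 differed by 0.26 and 1.70. The purine receptor P2ry1 of PDGFRA-positive interstitial cells, the 1 call among 6 (16.7%), read 3.03 and 3.67 against 5.10, 5.29 and 5.21. Of 13 skeletal muscle genes 2 (15.4%) were called, the enzymes Ckm and Eno3, higher by 2.08 and 1.75, and the other probe set of Ckm differed by -0.15. The atrial light chain Myl7, at -3.12, was the 1 call among 5 cardiac genes (20%). Single calls in the remaining lists were Apoa1 (1.54) of 6 hepatocyte genes (16.7%) and Ehhadh (-2.16) of 18 fatty acid oxidation genes (5.56%). Hyou1 (-1.03) was the 1 call of 20 unfolded protein response genes (5%). The haemoglobin gene Hbb-b2 (-1.10) was that of 3 blood genes (33.3%). The other probe sets of Hyou1 differed by 0.74 and 1.20, and it was not called without tsA58 array 1 (-0.99).

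The lines are likewise named C57BL/6J and tsA58 and share no arrays with the tissues, so each gene could be read in both contrasts. The lines also differed in culture conditions and in sex-linked genes. The X-linked Xist averaged 11.64 in the C57BL/6J line and 4.99 in the tsA58 line, and the Y-linked Eif2s3y 3.12 and 7.84. In the line contrast these cannot be told apart from strain. Between the lines 8.38% of genes were called higher in tsA58 and 5.77% lower. Of the 1270 genes higher in tissue 120 (9.45%) were higher between the lines too, and of the 426 lower genes 52 (12.2%) were lower. These 172 genes made up 10.1% of the tissue calls, and another 125 (7.37%) were called the opposite way. Without C57BL/6J tissue array 1 the counts were 80 the same way and 39 the opposite way, and without array 3 of the tsA58 line 220 and 238. Read from the lines, the shared genes were 10.8% of those higher and 6.78% of those lower. Rpgrip1 differed by -4.99 ± 0.43 between the lines, C1s1 by -5.70, Ang by -3.62, Aldh1a7, an aldehyde dehydrogenase, by -3.34 and the growth factor Bmp2 by -2.64. Cap1 differed by 3.86 in the lines, Rbm45 by 3.23, Golt1b by 3.81, Tmem87a by 2.90, Ada, adenosine deaminase, by 2.61 and Abcb1b by 2.34. In tissue Aldh1a7 and Bmp2 differed by -3.50 and -2.40, and Golt1b, Tmem87a and Ada by 2.79, 2.60 and 2.87. The second probe set of Golt1b differed by less than 0.01 in tissue and by -0.22 in the lines. Lbp, Lcn2, Mid1 and Fbn2 completed the 15 genes with the greatest change shared by both contrasts. Of 81 shared genes with another probe set above the filter, 53 had the same sign in all of them.

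**Figure D5:**
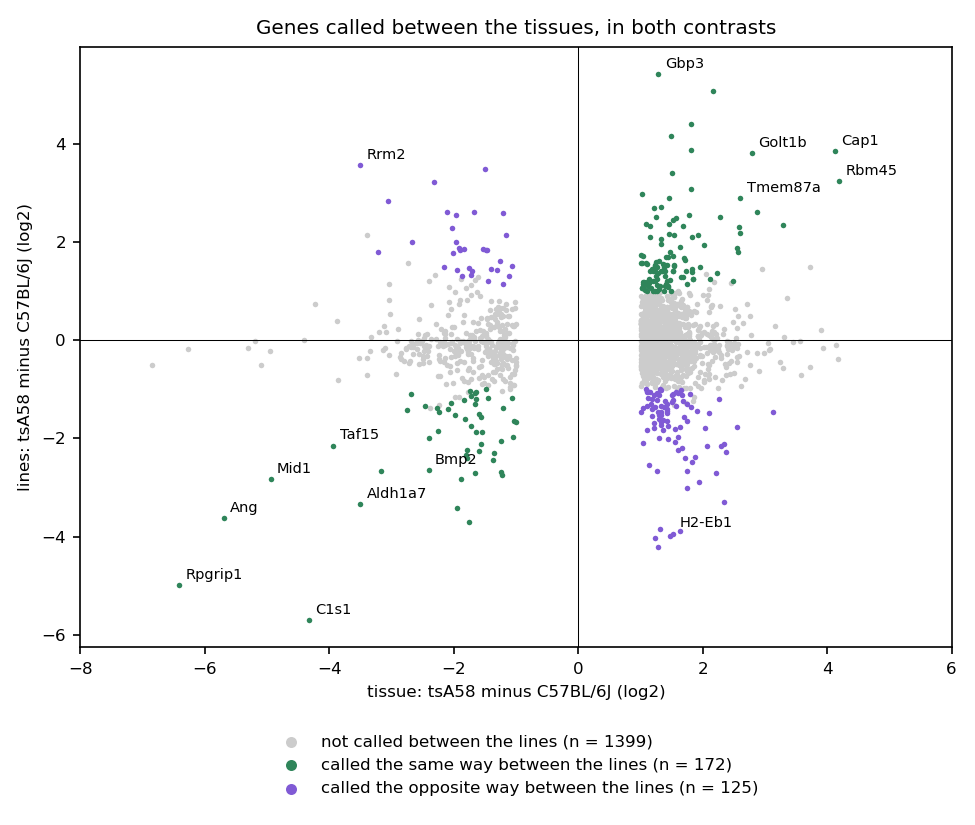
For the 1696 genes called between the tissues, the tsA58 minus C57BL/6J difference in tissue (horizontal axis) and between the lines (vertical axis), on the log2 scale. Green points are the 172 genes called the same way in both and purple points the 125 called the opposite way. Rpgrip1, C1s1 and Ang lie at the lower left and Cap1, Rbm45 and Golt1b at the upper right.

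Genes known to vary between mouse strains were checked for the background of the tsA58 mice. Mid1, which crosses the edge of the pseudoautosomal region in C57BL/6 mice, read 9.75 and 8.88 against 4.76, 4.09 and 4.27 (-4.94 ± 0.39, adjusted p = 0.000109), and its 2 other probe sets were near background on all arrays. Erdr1 of the same region was higher by 1.19 ± 0.22. Nnt, a mitochondrial transhydrogenase partly deleted in C57BL/6J mice, read 9.30 and 9.31 against 9.88, 9.64 and 9.37 and was not called. Its other probe set differed by -0.36. The lines differed by 2.15, with means of 7.45 in the C57BL/6J line and 9.60 in the tsA58 line, so C57BL/6J line and tissue were unlike. The other 8 genes, Ahr, Apoa2, Cd59a, Ceacam1, Glo1, H2-Ea, Ide and Wdfy1, lay between -0.80 and 0.70 and were not called.

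Sex-linked genes differed between arrays of the same group. Xist, the RNA of the inactive X chromosome, read 10.12 and 5.47 on the C57BL/6J arrays and 4.83, 9.32 and 4.66 on the tsA58 arrays. The Y-linked Eif2s3y read 7.91 and 8.09 against 8.87, 2.92 and 9.35, and Kdm5d 5.31 and 5.34 against 6.56, 2.56 and 6.64. The third Y-linked gene, Uty, read 4.48 and 4.89 against 5.57, 3.86 and 5.52. Array 2 of tsA58 thus carried Xist without Y-linked signal, array 1 of C57BL/6J carried both, and the other 3 carried Y-linked signal with low Xist. With the Y-linked genes as a covariate 1331 genes were higher and 494 lower.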

How the data were processed

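Total RNA of each sample, about 50 ng, went through 2 rounds of amplification, primed with oligo(dT) and then at random, and was hybridised to an Affymetrix mouse genome array, per the labels' protocols. What the authors deposited is a log2 intensity for every probe set, computed with RMA (submitters' processing notes; no version is given there). RMA by its method equalises probe intensities between arrays, so a change of most transcripts in 1 direction would be largely removed. There are no detection calls, and values near the array medians of 4.66 to 4.84 cannot be told from background. The number of arrays limits the precision.

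Of 45101 probe sets 34945 had a lone gene symbol in the array annotation, 932 had several and 9160 none; only the first were named. The probe set brightest on average over 11 arrays stood for its gene, and 13285 of 18193 genes, those above the array median on at least 2 arrays, entered the limma fit (version 3.58.1, R 4.3.3, lmFit and eBayes) on 4 group means. The fit, of 7 residual and 3.49 prior degrees of freedom, shares its spread with the lines. On simulated data with 100 genes changed at each size, it called 68 the right way at 1.5 log2 units and 89 at 3. It also called 11 unchanged genes. The simulated noise was independent between arrays and held no division within a group.

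The rule for naming genes took the 15 highest and 15 lowest called genes, up to 4 called members of each of 42 lists, the ICC, sex and strain check genes, and the 15 genes with the greatest change shared with the lines; uncharacterised models were passed over. Members, lists and rule were chosen with earlier results of these data known, and some further genes were added for their values: Cyp2e1, Inmt, Dlk1, Meg3, Peg3, Hmga2, Retn, Mki67, Top2a and Cdc20, abundant muscle genes, and further called list members. Alternatives were other normalizations, filters, probe set rules, covariates, weights, the 5 tissue arrays alone, the replicate number as a block, and each array left out. Numbers do not pair the arrays: deviations of same-numbered arrays correlated at -0.047 and -0.050. Plots were made with Python 3.11.15 and matplotlib 3.10.9.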

Additional observations from a re-analysis of the deposited data

Results flagged for a closer look

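The tsA58 minus C57BL/6J difference was compared between tissue and lines by an interaction contrast of the limma fit, which had an adjusted p below 0.05 for 22.6% of all genes tested. Of the 32 named genes called in both contrasts, 12 differed between them, 7 of them called in opposite directions. For these 7 the difference in tissue less that in the lines was -7.07 for Rrm2, -5.54 for Ccne2, 5.46 for H2-Eb1, 3.39 for Hspb8, 3.36 for Klf9, 2.78 for Dbp and 2.59 for Erdr1. Rrm2 and Ccne2 were lower in tsA58 tissue (-3.50 and -2.32) and higher in the tsA58 line (3.56 and 3.22). Their tissue calls were lost under 16 of 25 and 8 of 24 alternatives. H2-Eb1 was higher in tissue (1.52) and lower in the line (-3.94). The remaining 5 were called the same way in both with unequal size: the difference of the differences was -4.13 for Gbp3, -2.67 for H2-D1, -2.11 for Mid1, -2.07 for Ang and 1.37 for C1s1. Ang, Mid1 and C1s1 were near background in tsA58, with means of 4.15, 4.37 and 4.23 in tissue and 4.0, 5.09 and 4.78 in the line, so that their sizes follow the C57BL/6J levels and cannot be compared as changes. Gbp3 and H2-D1 were higher by 5.41 and 4.16 in the line against 1.29 and 1.49 in tissue.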

How the results depend on the processing

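Counts of calls and differences of named genes were recomputed under up to 25 alternatives. Overlaps with the lines have no value with the tissue arrays alone, and correlations, components and promoter counts were not recomputed. Of 141 called genes named in the text or by its rule, 48 kept call and sign under every alternative run and 23 changed sign under at least 1. Of 39 genes not called, 26 were called under some alternative. The cause of the changes below was not tested. Leaving out 1 array at a time gave these ranges of counts: 0 to 4 for MHC class II higher, 2 to 9 for adipocyte higher, 0 to 17 for cell cycle lower, 40 to 92 for all list genes higher, 9 to 47 for all list genes lower, 3 to 7 for endothelial higher, 3 to 7 for glia higher, 0 to 11 for gastric epithelium lower, 3 to 7 for macrophage higher, 5 to 8 for contractile higher, 605 to 1394 for all genes higher, 175 to 547 for all genes lower, 39 to 238 for called the opposite way in the lines and 80 to 220 for called the same way in the lines. Each range reached its lowest count without a C57BL/6J tissue array, which leaves 1 array there, assumed to vary like the other groups. The highest count came without tsA58 tissue array 1 for lower genes, and for cell cycle and adipocyte genes. The replicate block, tried although the numbers do not pair the arrays, gave 1140 genes higher and 341 lower.

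Counts that moved by over 1.5 times were as follows. After quantile normalization, they were 5 for cell cycle lower and 2 for MHC class II higher. After cyclic loess, they were 5 for cell cycle lower and 2 for MHC class II higher. On the scale of the hybridisation controls, they were 12167 for all genes higher, 18 for all genes lower, 6968 for called the same way in the lines, 80 for called the opposite way in the lines, 512 for all list genes higher, 3 for all list genes lower, 21 for contractile higher, 11 for adipocyte higher, 0 for cell cycle lower, 16 for endothelial higher, 17 for macrophage higher, 12 for glia higher and 0 for gastric epithelium lower. With the 5 tissue arrays alone, they were 17 for all list genes lower, 3 for adipocyte higher, 0 for cell cycle lower, 4 for macrophage higher, 3 for glia higher, 0 for gastric epithelium lower and 1 for MHC class II higher. With array weights, they were 669 for all genes lower, 332 for called the opposite way in the lines, 54 for all list genes lower, 16 for cell cycle lower and 8 for gastric epithelium lower. With no filter on low values, they were 2 for gastric epithelium lower. With the stricter filter on low values, they were 3 for endothelial higher. Without probe sets that may match several transcripts, they were 2 for MHC class II higher. With the replicate block, they were 1 for cell cycle lower and 0 for gastric epithelium lower. With the 3' to 5' actin ratio as covariate, they were 669 for called the same way in the lines, 56 for called the opposite way in the lines, 5 for contractile higher, 3 for adipocyte higher, 1 for cell cycle lower, 4 for macrophage higher, 3 for glia higher, 0 for gastric epithelium lower and 2 for MHC class II higher. With the Y-linked genes as covariate, they were 98 for called the same way in the lines and 9 for gastric epithelium lower. 

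Genes whose difference changed sign are given with their log2 value. After quantile normalization, they were Gadd45b (-0.12). After cyclic loess, they were Kdm5d (0.016). On the scale of the hybridisation controls, they were Ahr (1.33), Ano1 (2.04), Anxa10 (0.076), Apoa2 (1.99), Bub1b (0.053), Calcb (0.95), Cd44 (0.97), Cdh1 (0.15), Cdk6 (0.43), Ceacam1 (1.84), Cldn18 (0.39), Ctse (0.40), Cx3cr1 (0.41), Cyp51 (0.65), Edn3 (1.93), Eif2s3y (1.18), Elovl6 (1.45), Fabp7 (0.12), Fdft1 (1.06), Gja1 (1.57), Gkn3 (0.72), H2-Ea (1.54), Hbb-b2 (1.03), Hyou1 (1.10), Ide (1.52), Igf1r (1.64), Igf2 (0.18), Insig1 (0.14), Insr (2.10), Kdm5d (2.06), Laptm5 (0.050), Mcpt2 (0.56), Meg3 (0.74), Myocd (0.19), Peg3 (1.03), Pmaip1 (0.46) and Xist (0.60). With array weights, they were Insr (0.078) and Kdm5d (0.019). With the probe set brightest in tissue, they were Edn3 (0.88). With the mean of all probe sets of a gene, they were Ano1 (0.57), Cd44 (0.023), Edn3 (0.46), Gja1 (0.17), Hyou1 (0.30), Insr (0.016), Nnt (-0.015) and Uty (-0.66). Without probe sets that may match several transcripts, they were Ano1 (1.24), Edn3 (0.88), Gja1 (0.047), Hyou1 (1.20) and Malat1 (0.62). With the replicate block, they were Insr (0.053). With the 3' to 5' actin ratio as covariate, they were Acta2 (-0.98), Cd59a (-0.080), Insr (1.00), Kdm5d (0.19), Pdgfra (-0.81), Tagln (-1.62) and Uty (-0.036). With the Y-linked genes as covariate, they were Insr (0.0085) and Kdm5d (0.17). With 1 array left out at a time, the genes that changed sign are given as ranges: Ceacam1 (-0.60 to 0.021), Edn3 (-0.34 to 0.038), Eif2s3y (-2.10 to 1.11), Insr (-0.39 to 0.34), Kdm5d (-0.76 to 1.28) and Xist (-3.86 to 0.79).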
